A study of Zea mays with 8 samples.

Results

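The 5 genes described here are floral identity genes of maize, taken as 5 rows out of 39498 gene IDs: zag1 (Zm00001d037737.RefGen_V4), si1 (Zm00001d036425.RefGen_V4), zmm4 (Zm00001d034045.RefGen_V4), zfl1 (Zm00001d026231.RefGen_V4) and zfl2 (Zm00001d002449.RefGen_V4). The rule for choosing them names the IDs and uses no measured value. The count tables hold IDs only, and a RefSeq table of maize genes (Zm-B73-REFERENCE-NAM-5.0) lists none of the 5 IDs, so the names are those under which the rows were chosen and no coordinates are given. All 5 rows were present in all 8 libraries, and all 5 passed the filter on low counts.

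RNA was sequenced from immature ears, the young female inflorescences, in 4 groups of 2 libraries. The groups were a B73/Mo17 hybrid homozygous for a mop1 mutation (mop1/mop1, called mop1F1), a Mo17/B73 hybrid with both wild-type copies (+/+, called WTF1), and the wild-type inbred lines B73 and Mo17. The product of mop1, an RNA-dependent RNA polymerase, feeds RNA-directed DNA methylation. The ID of mop1 was not paired with a name here, so the mutation was not checked in the counts. The labels give no plant age, ear stage or mop1 allele. They do not tie the paired libraries to different plants either, so a p-value reflects the spread between libraries, which may be technical. In the hybrids the library numbered 1 carries the prefix GP1 and the library numbered 2 the prefix GP5, in the names of the count tables, and no label explains these prefixes.

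Flowers of maize are specified much as in other flowering plants. LEAFY-type transcription factors give a meristem its floral identity and act upstream of MADS-box transcription factors, which in combination specify the organs of the flower. In maize zfl1 and zfl2 are duplicate LEAFY-type genes, zmm4 is a MADS-box gene of the APETALA1/FRUITFULL type linked to the floral transition, si1 (silky1) is an APETALA3-type gene needed for lodicules and stamens, and zag1 is an AGAMOUS-type gene needed for floret determinacy. In the ear the stamens begin to form and are then arrested.

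The libraries held 11723096 to 26199577 counted reads, and levels are given as CPM, in which each library's counts over genes sum to the same total. The 2 hybrid libraries numbered 1 had 10.25% (mop1F1) and 9.70% (WTF1) of records set aside as ambiguous between genes, against 1.29% to 2.35% in the other 6 libraries. Records set aside for low alignment quality were 9.35% and 8.01% in mop1F1 and 9.35% and 8.31% in WTF1. In the parents they were 1.76% and 2.24% in B73 and 5.76% and 6.06% in Mo17. The part of this in differences between hybrids and parents was not tested. Over all IDs tested, the median fold between the 2 libraries of a group was 1.44 in mop1F1, 1.37 in WTF1, 1.14 in B73 and 1.12 in Mo17. The lists of other floral, meristem, leaf, kernel and anther genes, 81 symbols in all, could not be matched to the IDs, so neither the tissue nor other genes of the pathway were checked.

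The floral genes did not move as a block. In the hybrids zag1 was lower and si1 was higher than in the inbred parents, zfl1 was high in the hybrid libraries numbered 1, the mop1F1 libraries held both the lowest and the highest zmm4 level, and zfl2 stayed within a narrow range everywhere. None of the 5 genes was called different between mop1F1 and WTF1.

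**Figure D1:**
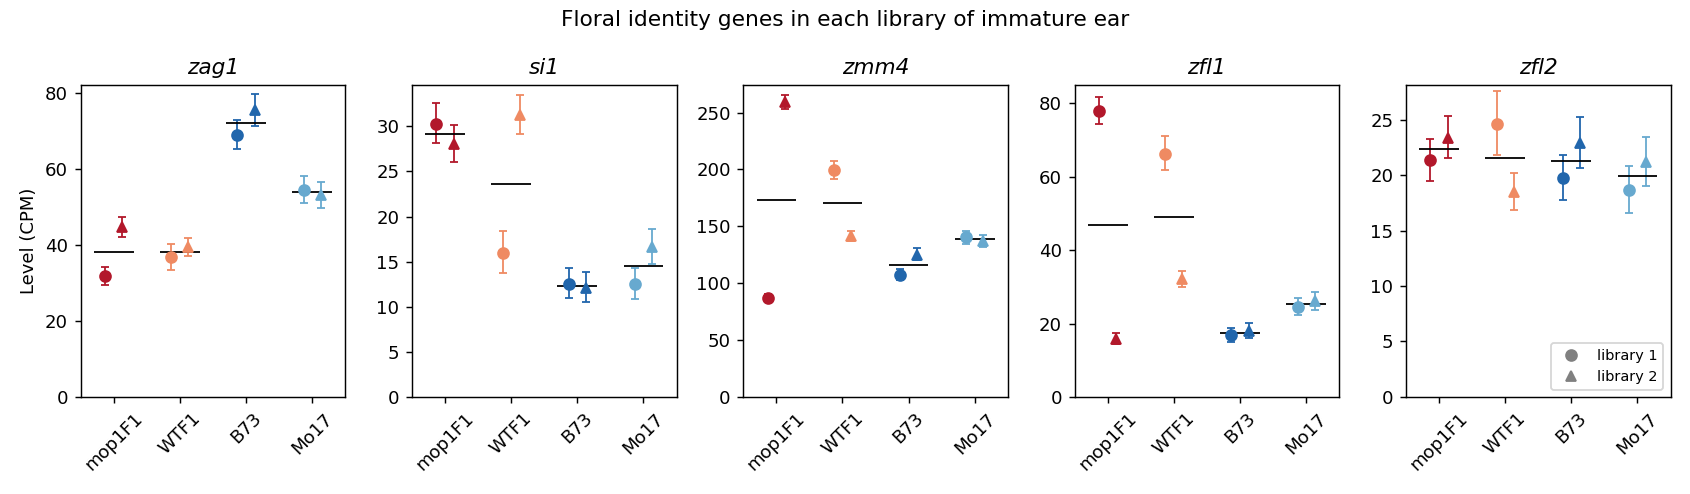
Level of each gene in CPM (vertical axis, linear from 0, a separate scale per gene) in the 2 libraries of mop1F1, WTF1, B73 and Mo17. Points are libraries (circles numbered 1, triangles numbered 2), vertical bars are exact 95% Poisson intervals for counting error only, and horizontal lines are group means; all 4 hybrid libraries of zag1 lie at or below 44.7 CPM, under the lowest parental library at 53.1 CPM.

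The first comparison set the 4 hybrid libraries against the 4 parental libraries, and it was added after the values had been seen. Of the 5 genes, 1 fell and 1 rose (edgeR quasi-likelihood test, Benjamini-Hochberg adjusted p below 0.05), where 9.93% of 24511 tested IDs were called. At an unadjusted p below 0.05 there were 3 of the 5 genes (zag1, si1 and zfl1), where 28.2% of all tested IDs were found. The median log2 fold change of the 5 genes was 0.48, and that of all tested IDs was 0.10. In bulk tissue, fewer cells expressing a gene and less RNA per cell cannot be told apart. Hybrids and the Mo17 parent were also read against different genomes: the names of the count tables put Mo17 libraries on the Mo17 genome and all others on that of B73, and the part of this in the differences was not tested.

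The AGAMOUS-type gene zag1 had 31.8 and 44.7 CPM in mop1F1, 36.8 and 39.4 CPM in WTF1, 68.9 and 75.4 CPM in B73, and 54.6 and 53.1 CPM in Mo17. All 4 hybrid libraries lay below all 4 parental libraries, which was so for 7.85% of the tested IDs. The mean was 38.2 ± 5.38 CPM in the hybrids and 63.0 ± 10.9 CPM in the parents (SD, n = 4 each). The log2 fold change of zag1 was -0.65 ± 0.15 (SE, edgeR, adjusted p = 0.0409). Its direction held without any 1 library, but the call was lost without WTF1 replicate 1 or 2 (edgeR, adjusted p = 0.0686 and 0.0537), without B73 replicate 1 or 2 (0.155 and 0.179) and without Mo17 replicate 1 or 2 (0.195 and 0.179).

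Against single groups zag1 was not called in the edgeR fit of group means. Against B73 the log2 fold change was -0.86 ± 0.22 in mop1F1 and -0.92 ± 0.22 in WTF1 (SE, edgeR, adjusted p = 0.0783 and 0.0685). Both differences passed with DESeq2 (adjusted p = 0.0357 for mop1F1 and 0.0246 for WTF1) and with the hybrid number as a term (edgeR, adjusted p = 0.031 and 0.0281). Against Mo17 it was -0.37 ± 0.22 in mop1F1 and -0.43 ± 0.22 in WTF1 (edgeR, adjusted p = 0.368 and 0.299). The level in B73, 72.2 ± 4.59 CPM, stood above that in Mo17, 53.9 ± 1.01 CPM (SD, n = 2 each), with a log2 fold change of 0.49 ± 0.22 that did not pass in the fit of all 8 libraries (edgeR, adjusted p = 0.225). In a fit of the 4 parental libraries alone it passed (edgeR, adjusted p = 0.0164). The order of means was therefore B73, Mo17, mop1F1 and WTF1, and no neighbouring pair in it was called in the fit of all 8 libraries.

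The APETALA3-type gene si1 had 30.3 and 28.0 CPM in mop1F1, 16.0 and 31.2 CPM in WTF1, 12.6 and 12.1 CPM in B73, and 12.5 and 16.6 CPM in Mo17. Both mop1F1 libraries and the WTF1 library numbered 2 lay above all parental libraries, while the WTF1 library numbered 1 lay among them. The mean was 26.4 ± 7.08 CPM in the hybrids and 13.4 ± 2.12 CPM in the parents (SD, n = 4 each). The log2 fold change of si1 was 1.04 ± 0.26 (SE, edgeR, adjusted p = 0.0461). The call was lost without WTF1 replicate 2 (edgeR, adjusted p = 0.0511), without B73 replicate 1 or 2 (0.17 and 0.181) and without Mo17 replicate 1 or 2 (0.178 and 0.118), with the same direction each time.

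No single hybrid was called against a single parent at si1 by edgeR. The log2 fold change was 1.32 ± 0.37 in mop1F1 against B73 and 1.15 ± 0.37 in mop1F1 against Mo17 (SE, edgeR, adjusted p = 0.099 and 0.124). With DESeq2 mop1F1 passed against B73 (log2 fold change 1.29, adjusted p = 0.0331) and not against Mo17 (adjusted p = 0.0759). For WTF1 it was 0.94 ± 0.37 against B73 and 0.77 ± 0.36 against Mo17 (edgeR, adjusted p = 0.197 and 0.278). Between B73 and Mo17 the log2 fold change was -0.17 ± 0.36 (SE, edgeR, adjusted p = 0.841). The means ran from mop1F1 (29.2 CPM) through WTF1 (23.6 CPM) and Mo17 (14.5 CPM) to B73 (12.3 CPM). No neighbouring pair in this order was called.

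The APETALA1/FRUITFULL-type gene zmm4 had 86.8 and 259 CPM in mop1F1, 199 and 141 CPM in WTF1, 107 and 125 CPM in B73, and 140 and 137 CPM in Mo17. The lowest and the highest of the 8 libraries were both mop1F1 libraries, 2.98-fold apart, whereas the Mo17 libraries were 1.02-fold apart and the B73 libraries 1.17-fold apart. The mean was 172 ± 74.2 CPM in the hybrids and 127 ± 14.8 CPM in the parents (SD, n = 4 each), a log2 fold change of 0.48 ± 0.31 that did not pass (edgeR, adjusted p = 0.354). The means of the groups were 173 ± 122 CPM in mop1F1, 170 ± 40.9 CPM in WTF1, 139 ± 2.36 CPM in Mo17 and 116 ± 12.6 CPM in B73 (SD, n = 2 each), and no pair of groups was called. These values turned on which mop1F1 library was kept. With the higher one alone (without replicate 1) the log2 fold change of zmm4 was 0.81 for hybrids against parents and 1.18 for mop1F1 against B73 (edgeR). With the lower one alone (without replicate 2) it was 0.0494 and -0.26. In such a fit mop1F1 is 1 library, which is assumed to vary as the libraries of the other groups do.

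Of the duplicate LEAFY-type genes, zfl1 had 78.0 and 15.8 CPM in mop1F1, 66.3 and 32.0 CPM in WTF1, 16.9 and 18.0 CPM in B73, and 24.5 and 26.0 CPM in Mo17. The hybrid libraries numbered 1 stood far above the parents, the WTF1 library numbered 2 stood a little above them, and the mop1F1 library numbered 2 was the lowest of all 8. The mean was 48.0 ± 29.0 CPM in the hybrids and 21.4 ± 4.59 CPM in the parents (SD, n = 4 each). The log2 fold change of 1.29 ± 0.50 did not pass (SE, edgeR, adjusted p = 0.143). With the hybrid number (GP1 or GP5) as a term it was 1.05 ± 0.24 and passed (SE, edgeR, adjusted p = 0.03). In the fit of group means it was 1.67 without mop1F1 replicate 2 and 0.49 without mop1F1 replicate 1. No pair of groups was called at zfl1 in the fit of all 8 libraries. With mop1F1 as 1 library, assumed to vary like the other groups, its log2 fold change against B73 and against Mo17 was 2.32 and 1.85 without replicate 2 (edgeR). Without replicate 1 it had the other sign, at -0.12 and -0.59.

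The second copy, zfl2, had 21.3 and 23.3 CPM in mop1F1, 24.6 and 18.5 CPM in WTF1, 19.7 and 22.9 CPM in B73, and 18.6 and 21.2 CPM in Mo17. In CPM both mop1F1 libraries lay above both Mo17 libraries, as for 23.3% of tested IDs, and every other pair of groups overlapped. With the TMM scaling of the fits, both mop1F1 libraries (23.7 and 23.1 CPM) also lay above both B73 libraries (19.9 and 22.7 CPM). The mean without this scaling was 21.9 ± 2.66 CPM in the hybrids and 20.6 ± 1.83 CPM in the parents (SD, n = 4 each). Its log2 fold change of 0.16 ± 0.18 did not pass (edgeR, adjusted p = 0.609), with a 95% interval of -0.26 to 0.57. Among the 5 genes zfl2 had the smallest range over all 8 libraries relative to its level: its log2 level departed from its own mean by 0.14 (root mean square), against 0.40 for zag1, 0.46 for zmm4, 0.53 for si1 and 0.80 for zfl1, on the log2(CPM + 1) scale.

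Because the copies share sequence, reads could be split between them by the counting, and no source used here gives the setting for reads with several alignments. The ratio of zfl1 counts to zfl2 counts was 3.66 and 0.676 in mop1F1, 2.7 and 1.73 in WTF1, 0.858 and 0.786 in B73, and 1.32 and 1.23 in Mo17. The highest and the lowest ratio were both in mop1F1, while the 2 libraries of each parent lay close together. The mean log2 ratio was 0.88 ± 1.06 in the hybrids and 0.03 ± 0.37 in the parents (SD, n = 4 each), a difference of 0.85 (exact permutation test, two-sided p = 0.171, the smallest possible being 0.0286). With both copies counted as 1 feature, hybrids over parents came to 0.83 ± 0.34 on the log2 scale (SE, edgeR, adjusted p = 0.164).

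**Figure D2:**
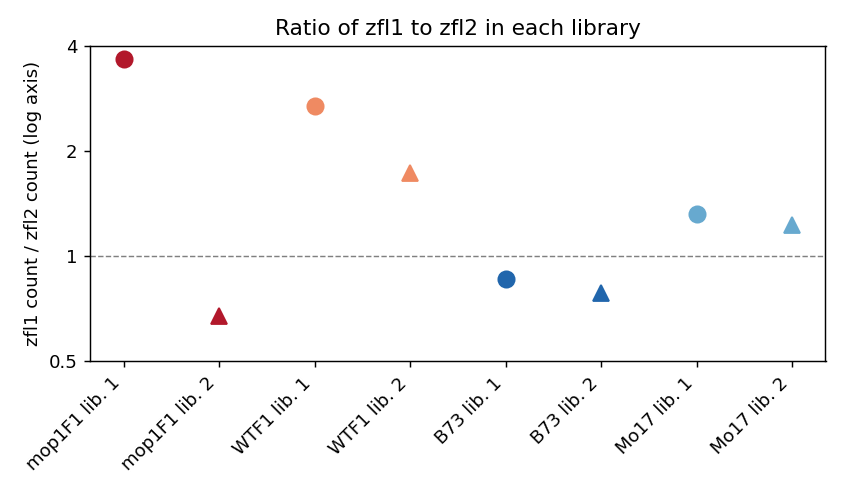
Ratio of zfl1 to zfl2 counts (vertical axis, log scale) in each library of mop1F1, WTF1, B73 and Mo17, circles for libraries numbered 1 and triangles for those numbered 2. The mop1F1 libraries lie at 3.66 and 0.676, further apart than the libraries of any other group.

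The next comparison asked whether the mop1 mutation went with a change of the floral genes in the hybrid. None of the 5 genes was called between mop1F1 and WTF1 by edgeR, and none was below an unadjusted p of 0.05. Among all tested IDs edgeR called 0.00816% and put 1.86% below that unadjusted limit. DESeq2 called none of the 5 genes either, beside 42 of 31065 IDs. At none of the 5 genes were the mop1F1 and WTF1 libraries free of overlap, against 12.5% of all IDs. The log2 fold change with its 95% interval was 0.07 (-0.44 to 0.57) for zag1, 0.38 (-0.46 to 1.22) for si1, 0.06 (-0.97 to 1.08) for zmm4, 0.07 (-1.54 to 1.68) for zfl1 and 0.13 (-0.46 to 0.72) for zfl2 (edgeR, adjusted p = 1 for each). The intervals of zmm4 and zfl1 are the widest of the 5 and reach well to either side of 0.

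In CPM the hybrids differed more within a number than their means did, except at si1 among libraries numbered 2. At zmm4 the ratio of mop1F1 to WTF1 was 0.436 among libraries numbered 1 and 1.83 among those numbered 2. At zfl1 it was 1.18 among those numbered 1 and 0.493 among those numbered 2, and at si1 it was 1.90 and 0.898. For zag1 the ratio was 0.866 and 1.14, and for zfl2 it was 0.868 and 1.26. At all 5 genes the ratios of the 2 numbers lie on opposite sides of 1. Each mean difference therefore averages pairs of unlike direction, most so at zmm4, zfl1 and si1. How many of all IDs share this was not counted.

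**Figure D3:**
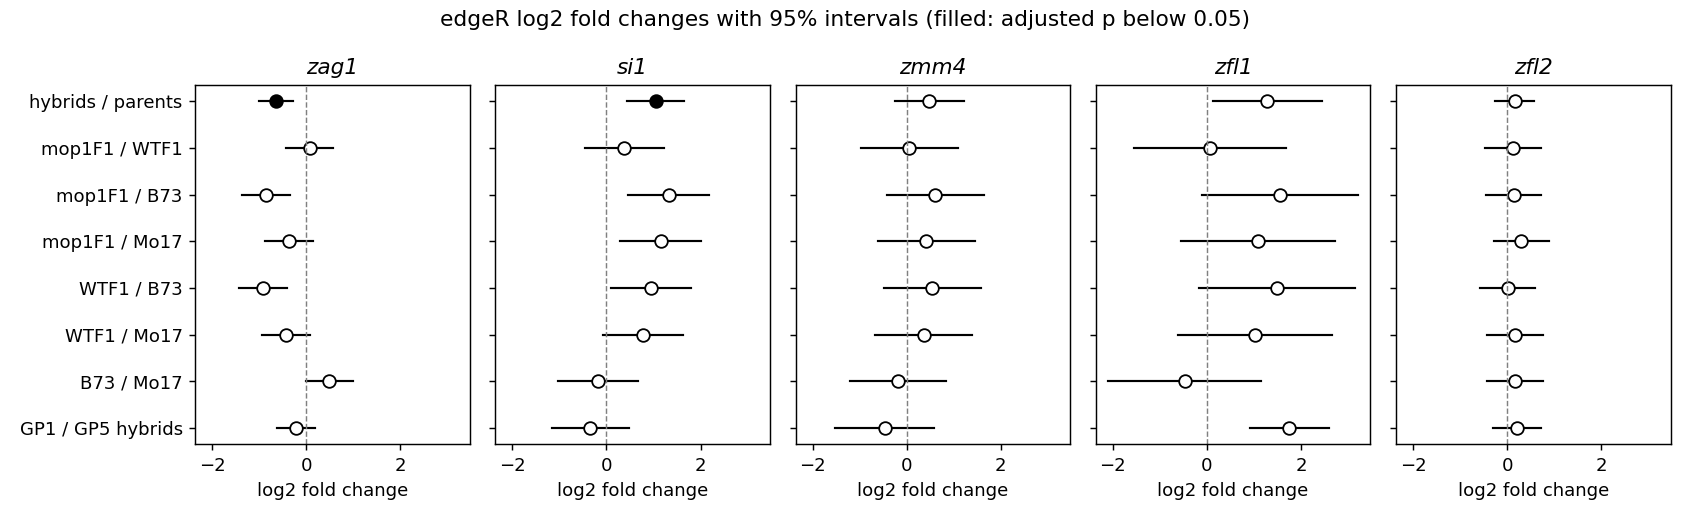
Log2 fold change (horizontal axis) of each gene in 8 comparisons from edgeR, the first-named group over the second, with 95% intervals as lines; filled points have an adjusted p below 0.05. Filled points occur for zag1 and si1 in hybrids over parents, and the intervals of zfl1 are the widest except in GP1 over GP5 hybrids, where zmm4 has the widest.

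Against single parents and between parents, 0 of the 5 genes was called in the fit of group means (edgeR). The share of all tested IDs called was 3.5% for mop1F1 against B73, 5.52% for mop1F1 against Mo17, 3.25% for WTF1 against B73, 4.5% for WTF1 against Mo17 and 10.4% for B73 against Mo17. At an unadjusted p below 0.05, 2 of the 5 genes were found in mop1F1 against B73 and 2 in WTF1 against B73 (zag1 and si1 in both), 1 in mop1F1 against Mo17 (si1), 0 in WTF1 against Mo17 and 0 in B73 against Mo17. For all IDs these shares were 21.3%, 21.5%, 22.3%, 21.0% and 23.6% in the same order of comparisons: mop1F1 against B73, WTF1 against B73, mop1F1 against Mo17, WTF1 against Mo17 and B73 against Mo17. These comparisons share libraries. DESeq2 called zag1 and si1 in mop1F1 against B73, zag1 in WTF1 against B73, and 0 of the 5 in the other 3. Over all IDs DESeq2 called 2591 of 25474 in mop1F1 against B73 and 2527 of 25474 in WTF1 against B73. For the other 3 it called 2846 of 26093 (mop1F1 against Mo17), 2611 of 26093 (WTF1 against Mo17) and 3784 of 27330 (B73 against Mo17).

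Between the parents zag1, described above, had the largest fitted difference of the 5 genes (log2 fold change 0.49), and 50.9% of tested IDs had a smaller one in size. B73 over Mo17 had a log2 fold change of -0.47 ± 0.70 for zfl1, -0.19 ± 0.44 for zmm4 and 0.16 ± 0.25 for zfl2 (SE, edgeR, adjusted p = 0.762, 0.859 and 0.773). The zfl1 level was 17.4 ± 0.737 CPM in B73 and 25.3 ± 1.04 CPM in Mo17 (SD, n = 2 each), without overlap, as for 71.8% of tested IDs. In the fit of the 4 parental libraries alone, where 9334 IDs were called, zfl1 passed as well (edgeR, adjusted p = 0.0496). The wide error of zfl1 in the fit of all 8 libraries includes its spread in the hybrids.

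The last comparison set the GP1 libraries of both hybrids against the GP5 libraries, with a term for the genotype. None of the 5 genes was called by edgeR, 1 of 5 was below an unadjusted p of 0.05, and DESeq2 called 1 (zfl1). Among all tested IDs edgeR called 2.4% and put 24.6% below the unadjusted limit, and DESeq2 called 3327 of 23619 IDs. The median log2 fold change was -0.22 for the 5 genes and -0.05 for all tested IDs. The ambiguous share of records, 10.25% in mop1F1 and 9.70% in WTF1 in the GP1 libraries against 1.35% in mop1F1 and 1.29% in WTF1 in the GP5 libraries, goes with this split, and its part in the differences was not tested.

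Of the 5 genes, zfl1 had the largest difference between GP1 and GP5, with 78.0 CPM in mop1F1 and 66.3 CPM in WTF1 in the GP1 libraries, against 15.8 CPM in mop1F1 and 32.0 CPM in WTF1 in the GP5 libraries. Both GP1 libraries lay above both GP5 libraries, as for 23.4% of tested IDs. GP1 was 4.94-fold higher in mop1F1 and 2.07-fold higher in WTF1. Over both hybrids the log2 fold change was 1.75 ± 0.35 (SE), just outside the threshold with edgeR (adjusted p = 0.0579) and inside it with DESeq2 (adjusted p = 0.000124) and without the filter on low counts (edgeR, adjusted p = 0.0312). Of all tested IDs, 90.3% had a smaller log2 fold change in size. In a fit of the 4 hybrid libraries alone it was 1.76 ± 0.49 (SE, edgeR, adjusted p = 0.41, unadjusted p = 0.0139), and 0 of 24001 IDs passed in that fit, with 2252 at an unadjusted p below 0.05. Without any 1 hybrid library the estimate rests on 1 pair, with the spread of the parental libraries alone. It was then 1.1 and 1.02 without mop1F1 replicate 1 and 2, and 2.51 and 2.43 without WTF1 replicate 1 and 2. No call is drawn from these fits.

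In CPM the duplicate zfl2 was not separated in this way, but with the TMM scaling of the fits it was. Unscaled, zfl2 had 21.3 CPM in mop1F1 and 24.6 CPM in WTF1 in GP1, against 23.3 and 18.5 CPM in GP5. With TMM scaling it had 23.7 CPM in mop1F1 and 24.3 CPM in WTF1 in GP1, against 23.1 and 18.6 CPM in GP5. The fitted log2 difference was 0.21 ± 0.21 (SE, edgeR, adjusted p = 0.561). Counted as 1 feature, GP1 over GP5 came to 1.17 ± 0.22 on the log2 scale (SE, edgeR, adjusted p = 0.0511).

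Among the MADS-box genes, zag1 was lower in both GP1 libraries (31.8 CPM in mop1F1 and 36.8 CPM in WTF1) than in both GP5 libraries (44.7 CPM in mop1F1 and 39.4 CPM in WTF1), as for 31.7% of tested IDs, but not beyond the error (log2 fold change -0.22 ± 0.17, SE, edgeR, adjusted p = 0.438). The level of zmm4 went opposite ways in the hybrids: GP1 over GP5 was 0.335 in mop1F1 and 1.41 in WTF1, and the mean log2 fold change was -0.47 ± 0.43 (SE, edgeR, adjusted p = 0.535). For si1 the ratio was 1.08 in mop1F1 and 0.511 in WTF1, with a mean of -0.35 ± 0.34 on the log2 scale (SE, edgeR, adjusted p = 0.557). The exact 95% Poisson intervals of the zmm4 levels, for counting error only, were 83.1 to 90.7 and 253 to 265 CPM in mop1F1 (GP1 and GP5) and 191 to 208 and 137 to 146 CPM in WTF1 (GP1 and GP5), so counting error is small beside these differences. From the mop1F1 pair, the log2 fold change of zmm4 was -1.37 without WTF1 replicate 1 and -1.45 without WTF1 replicate 2 (edgeR). From the WTF1 pair, that of si1 was -0.92 without mop1F1 replicate 1 and -0.998 without mop1F1 replicate 2. These fits take their spread from the parental libraries alone, and no call is drawn from them. With 1 library per hybrid and prefix, a difference between ears and a difference between GP1 and GP5 cannot be told apart within a hybrid.

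**Figure D4:**
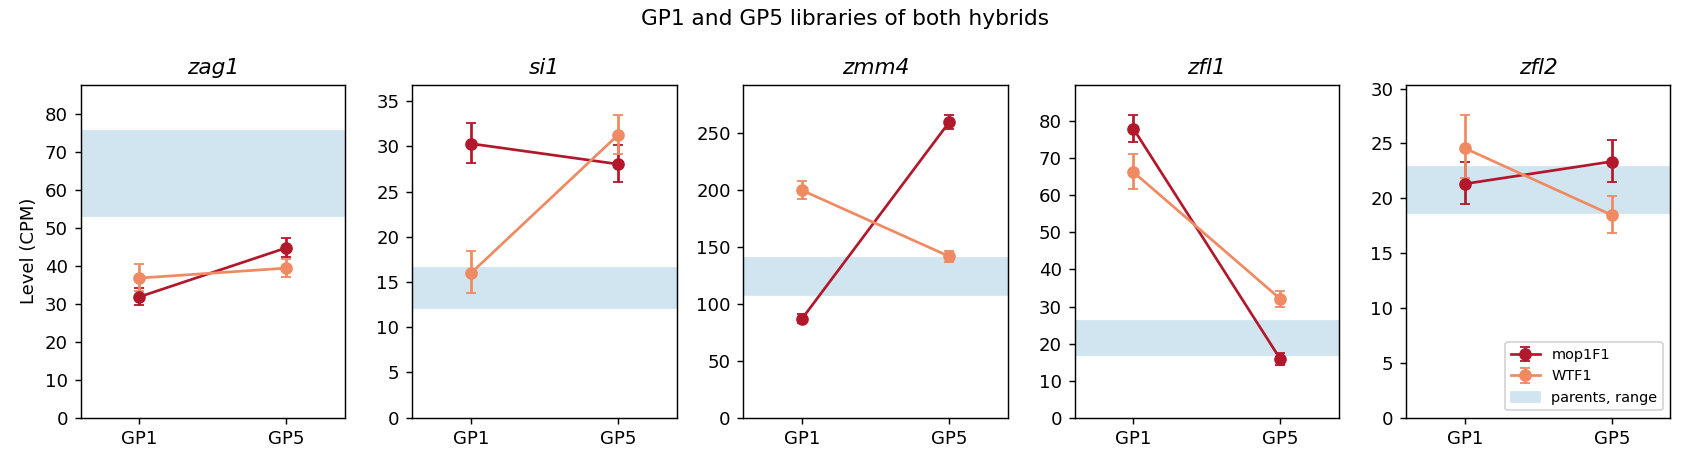
Level in CPM (vertical axis, linear from 0) of each gene in the GP1 and GP5 libraries of mop1F1 and WTF1, 1 library per point with exact 95% Poisson intervals for counting error only; the shaded band is the range of the 4 parental libraries. The lines of zfl1 both run from above the band in GP1 to lower levels in GP5, those of zmm4 cross, and those of zag1 stay below the band.

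The patterns of the 5 genes over the 8 libraries were more alike in some pairs than in others. After centring on each gene's own mean, the pairs were compared by the root mean square difference of log2(CPM + 1). It ran from 0.411 (zmm4 and zfl2) to 1.15 (zag1 and zfl1). Set against the medians over all IDs given below, the first pair was nearer than either gene's median and the last pair further. The copies zfl1 and zfl2 differed by 0.785, about as much as zfl1 departed from its own mean (0.798).

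Among 22126 other IDs with a mean of at least 1 CPM, some came much closer to each gene than the other floral genes did. Nearest to zag1 were Zm00001d012707.RefGen_V4 and Zm00001d037028.RefGen_V4, with root mean square differences of 0.0617 and 0.09. Nearest to si1 were Zm00001d027838.RefGen_V4 (0.0757) and Zm00001d053632.RefGen_V4 (0.135). For zmm4 they were Zm00001d036454.RefGen_V4 (0.0921) and Zm00001d036388.RefGen_V4 (0.0928).

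Nearest to zfl1 were Zm00001d003288.RefGen_V4 (0.149) and Zm00001d021285.RefGen_V4 (0.181). Nearest to zfl2 were Zm00001d042117.RefGen_V4 (0.0717) and Zm00001d017492.RefGen_V4 (0.0728). The median difference over all IDs searched was 0.556 for zag1, 0.698 for si1, 0.603 for zmm4, 0.944 for zfl1 and 0.441 for zfl2. These IDs are a description over 8 libraries that share groups and numbers, and the files give no names for them. The log2(CPM + 1) scale narrows the differences of low IDs, such as Zm00001d012707.RefGen_V4 at 1.19 to 3.67 CPM.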

How the data were processed

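The authors deposited, for each library, a table of whole-number counts with 1 row per gene ID and 5 summary rows, which were left out of totals and tests. The submitters' processing notes name FastQC, Trimmomatic, HISAT2, HTSeq and DESeq2 and no versions. No source used here states the strand setting or annotation release, so overlapping genes, antisense genes and near-identical copies may share reads. Group and replicate number follow the titles; the count table of B73 replicate 2 has a 1 in its name. The RefSeq table matched 0 of 39498 IDs.

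All 8 libraries entered a group-means fit in edgeR 4.0.16 (with limma 3.58.1, under R 4.3.3) after filterByExpr, which kept 24511 IDs, and TMM scaling. The quasi-likelihood F test was adjusted by Benjamini-Hochberg over all IDs kept, with a threshold of 0.05. GP1 against GP5 added a term for the hybrid number. The SE is the log2 fold change over the square root of F. Per library, 3 counts are 0.115 to 0.256 CPM, a limit for counting error only. Alternatives were DESeq2 1.42.0, its size factors, no filter, other designs and leaving out each library. The genes named are the 5, whatever their result, and the 2 IDs nearest in pattern to each. Genes and lists were chosen with earlier results of these data known; hybrids against parents and the zfl1 to zfl2 ratio were added after the values were seen.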

Additional observations from a re-analysis of the deposited data

Results flagged for a closer look

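In unscaled CPM, 3 genes had the GP1 library above the GP5 library in one hybrid and below it in the other. This was so for 38.4% of tested IDs. With the TMM scaling of the fits, zfl2 was higher in GP1 in both hybrids. Its scaled levels in GP1 and GP5 were 23.7 and 23.1 CPM in mop1F1, and 24.3 and 18.6 CPM in WTF1. The difference between the hybrids was not tested, since each holds 1 library per prefix. The log2 ratio of GP1 to GP5 in mop1F1 minus that in WTF1 was -2.07 for zmm4 (0.335-fold in mop1F1 and 1.41-fold in WTF1), 1.08 for si1 (1.08-fold and 0.511-fold) and -0.54 for zfl2 (0.913-fold and 1.33-fold, mop1F1 before WTF1 in each pair).

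The si1 level in Mo17 replicate 2, 16.6 CPM, stood apart from the other 3 parental libraries, at 12.1 to 12.6 CPM, with a gap of 0.89 of the range, beyond the 95% limit of Dixon's test. Of 10 sets of 4 libraries examined this was the 1 flagged, and chance flags about 5% of such sets; the set joins B73 and Mo17 libraries.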

How the results depend on the processing

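The directions of zag1 and si1 in hybrids against parents held in all 13 alternatives, with log2 fold changes of -0.73 to -0.52 and 0.79 to 1.30, but their calls did not. Of the 5 genes, 2 were called there, against 1 without the filter and 3 with the hybrid number as a term (zfl1 joining). Over all IDs these settings called 2434 of 24511, 3133 of 32277 and 4568 of 24511. Which of the 5 genes were called also changed when 1 library was left out. No gene was called between mop1F1 and WTF1 in any of 10 alternatives, and signs near 0 turned. There zag1 was -0.000355 without the filter and -0.00619 in the hybrids alone; zmm4 was -0.011 without the filter, -0.0214 in the hybrids alone and -0.0878 with the hybrid number as a term; zfl1 was -0.0032 in the hybrids alone and -0.31 with the number as a term. Leaving out 1 library gave -0.10 to 0.18 for zag1, -0.0128 to 0.91 for si1, -0.81 to 0.55 for zmm4, -1.69 to 0.83 for zfl1 and -0.10 to 0.35 for zfl2. It also turned zfl2 in WTF1 against B73 (-0.16 to 0.25), zmm4 and zfl1 in mop1F1 against B73 (-0.26 to 1.18 and -0.12 to 2.32) and against Mo17 (-0.45 to 0.99 and -0.59 to 1.85), and si1 in B73 against Mo17 (-0.36 to 0.0524). In GP1 against GP5 it turned si1 (-0.998 to 0.32), zmm4 (-1.45 to 0.54) and zfl2 (-0.00154 to 0.46). With the copies counted as 1 feature, B73 against Mo17 was -0.16, where zfl2 alone was 0.16.

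Some comparisons with 0 calls of the 5 genes gained calls in other settings. In WTF1 against B73, 1 of the 5 genes was called with DESeq2 and 1 with the hybrid number as a term. Over all IDs these settings called 2527 of 25474 and 2108 of 24511. For mop1F1 against B73 they called 2 and 1 of the 5 genes, beside 2591 of 25474 and 2467 of 24511 IDs. B73 against Mo17 in the parents alone gave 2, beside 9334 of 23444 IDs. For GP1 against GP5, 1 was called without the filter and 1 with DESeq2, beside 1098 of 32277 and 3327 of 23619 IDs. With 6 group means or without any 1 hybrid library, the spread is that of the parents alone, and their counts are left out. Leaving out 1 library of a compared group leaves that group with 1 library, and calls gained in such fits are not counted here.

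With the replicate number as a block, 0 of the 5 genes was called in hybrids against parents (edgeR, adjusted p = 0.0614 for zag1 and 0.0612 for si1). Over all IDs, 1822 of 24511 were called there, and 6414 had an unadjusted p below 0.05. With the same block, zmm4 was -0.025 and zfl1 -0.10 on the log2 scale in mop1F1 against WTF1. The numbers do not pair the 4 groups: the deviations of same-numbered libraries correlated at 0.315 between mop1F1 and WTF1 and at -0.079 to 0.113 between other groups, across 24511 IDs, which are not independent. The cause of these changes was not tested.

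Over all IDs the calls moved as well. They numbered 2 for mop1F1 against WTF1 (0 to 187 over the alternatives), 858 for mop1F1 against B73 (0 to 3161), 1352 for mop1F1 against Mo17 (415 to 2846), 796 for WTF1 against B73 (83 to 2527), 1102 for WTF1 against Mo17 (454 to 2611), 2561 for B73 against Mo17 (1062 to 9334), 2434 for hybrids against parents (560 to 5122) and 588 for GP1 against GP5 (0 to 7774). Depth was no limit for these genes, which had at least 187 counts in every library.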
